A study of Mus musculus with 6 samples.

Results

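The insulin-like growth factor (IGF) system of the ovary was examined as 10 genes, listed by symbol: the ligands Igf1 and Igf2, the receptors Igf1r and Igf2r, the binding proteins Igfbp2, Igfbp3, Igfbp4, Igfbp5 and Igfbp6, and the protease Pappa. All 10 were among the 44788 genes of the count table, and all 10 passed the filter on low counts that left 19423 genes for testing. RNA-seq was performed on ovaries of 8-week-old C57BL/6 J mice, with 3 wild type (WT) samples, replicates 1, 4 and 7, and 3 Bnc1tr/tr samples, replicates 1, 2 and 3. Bnc1tr/tr mice are homozygous for a short frameshift deletion in Bnc1, which truncates the zinc finger protein basonuclin 1 in every cell of the body, so the ovary and the other organs that feed into the IGF axis all carry it. The question was how the ovarian transcripts of a mouse model of primary ovarian insufficiency differ from WT, and here it is asked of the IGF genes. The labels do not say whether a sample was 1 ovary or a pair, or name the animal, so the p-values below measure the spread between these samples.

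IGF1 and IGF2 are secreted peptides that act through the receptor tyrosine kinase IGF1R, while IGF2R, also the mannose 6-phosphate receptor, takes IGF2 up for degradation. Binding proteins hold the peptides in tissue fluid and plasma, and proteases such as pregnancy-associated plasma protein A, encoded by Pappa, release them by cleaving IGFBP4 and IGFBP5. In the rodent ovary Igf1 is made by granulosa cells of growing follicles, where it strengthens the response to follicle-stimulating hormone, and follicles of mice without Igf1 fail to mature. IGFBP4 and IGFBP5 are known as products of granulosa cells of atretic follicles in rodents.

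Of the 10 genes, Igfbp3 fell and Igfbp6 rose in Bnc1tr/tr ovaries. Igfbp3 was 1.97-fold lower and Igfbp6 was 1.43-fold higher. The samples of the genotypes were fully separated for each, as they were for 30.8% of all genes tested. The Igfbp6 call lay just under the threshold (edgeR adjusted p = 0.046) and was lost when any 1 sample was left out. Without the 2 samples with the most oviduct marker reads, described below, neither gene passed. The ligands, both receptors, the other 3 binding proteins and Pappa did not pass the test. The comparison used edgeR's quasi-likelihood test on the counts with Benjamini-Hochberg adjustment over all 19423 genes and a threshold of 0.05. By that test 7.06% of all genes passed, 4.19% lower and 2.88% higher in Bnc1tr/tr, against 2 of the 10 IGF genes, 1 in each direction. Without TMM scaling of the libraries, 1728 rather than 1372 genes passed, and the lower ones made up 35.6% of them in place of 59.3%. The median log2 fold change was 0.20 over the 10 genes and 0.02 over all genes tested.

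The 2 genes that passed lie on different chromosomes and differ in the base composition of the DNA before their RefSeq start sites. Igfbp3 occupies chromosome 11, bases 7206086 to 7213923 on the minus strand, and Igfbp6 occupies chromosome 15, bases 102144362 to 102149511 on the plus strand (GRCm38, GENCODE M21). The 250 bases before the RefSeq start on GRCm38.p6 are chr11:7213924-7214173 on the minus strand for Igfbp3 and chr15:102143936-102144185 on the plus strand for Igfbp6, printed 5′ to 3′ with each CG dinucleotide in capitals.
Igfbp3: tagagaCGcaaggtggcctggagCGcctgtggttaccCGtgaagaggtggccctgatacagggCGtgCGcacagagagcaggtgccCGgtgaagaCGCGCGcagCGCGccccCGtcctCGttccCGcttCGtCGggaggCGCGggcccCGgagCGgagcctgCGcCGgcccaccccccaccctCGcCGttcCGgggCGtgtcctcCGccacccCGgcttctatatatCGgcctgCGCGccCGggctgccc
Igfbp6: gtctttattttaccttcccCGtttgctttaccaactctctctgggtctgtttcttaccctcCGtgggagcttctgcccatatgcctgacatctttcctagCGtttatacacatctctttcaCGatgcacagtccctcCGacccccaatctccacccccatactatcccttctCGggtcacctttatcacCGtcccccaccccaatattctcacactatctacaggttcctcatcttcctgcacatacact
The Igfbp3 window held 32 CG dinucleotides at 73.2% G and C, and the Igfbp6 window held 7 at 49.6%, beside a median of 52.4% G and C over 32851 RefSeq promoters of the same length. In the windows of the other IGF genes, none of which passed, G and C ranged from 47.6% at 1 Igf2 start to 77.6% for Igf1r. The Igfbp3 window lies directly before the GENCODE start of its gene. The Igfbp6 window ends at base 102144185, short of the GENCODE start at 102144362. The 2 windows therefore differ in their distance from the GENCODE starts, which limits the contrast between them. The Igfbp6 window held TATAAA once, on the minus strand at position -148 from the RefSeq start, and CCAAT at 2 places on the plus strand. Across all promoters 12.4% held TATAAA and 33.9% held CCAAT on either strand. The Igfbp3 window held neither of these, nor the GC box letters GGGCGG, the nuclear receptor half-site letters AAGGTCA, the forkhead letters GTAAACA or the cAMP half-site letters TGACG, which 32.7%, 4.08%, 3.17% and 17.8% of all promoters held on either strand. Only these exact letters were searched, so near matches, such as tatatat close to the end of the Igfbp3 window, were not counted. The letters are a description and were not tested against the expression values.

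Between 25247770 and 34406296 reads per sample were counted on genes, and the 10 IGF genes held 0.113% to 0.127% of them in WT and 0.125% to 0.158% in Bnc1tr/tr samples. Bnc1 itself had 375, 444 and 381 counts in WT and 527, 355 and 326 counts in Bnc1tr/tr samples, with a log2 fold change of 0.12 (edgeR's quasi-likelihood test, adjusted p = 0.733). A short deletion need not alter the number of reads, so this does not check the labels. Markers of granulosa cells, oocytes, stroma and luteal cells, which define the ovary, had at least 45 counts in every sample. The 10 oviduct markers summed to 166 CPM (the usual depth-scaled count, here on TMM-adjusted totals) in WT replicate 1 and 563 CPM in Bnc1tr/tr replicate 3, and to between 30.6 and 52.6 CPM in the other 4 samples. Calls that were lost without these 2 samples are given below with their values.

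The levels of the 10 genes spanned a wide range, and the binding proteins stood at the top. Levels were compared between genes as CPM per kilobase of exon (RPKM), since the genes differ in length. In WT ovaries Igfbp6, whose protein prefers IGF2 to IGF1, was highest at 110 ± 11.6 RPKM (SD, n = 3). It was followed by Igfbp2 at 73.8 ± 19.5, Igfbp5 at 62.9 ± 11.4 and Igfbp4 at 47.0 ± 2.67 RPKM. Igfbp3, which in plasma forms the main carrier complex of the IGFs, was the lowest binding protein of the 5 at 14.6 ± 1.64 RPKM. The receptors came next, with Igf2r at 14.1 ± 1.12 and Igf1r at 9.38 ± 1.32 RPKM. The ligands were lower, with Igf1 at 4.36 ± 0.218 and Igf2 at 1.99 ± 0.178 RPKM, and Pappa was last at 0.762 ± 0.362 RPKM. Of the neighbours in this order, Igfbp2 and Igfbp5 overlapped over the WT samples, as did Igfbp3 and Igf2r, and the other neighbours did not.

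In Bnc1tr/tr ovaries the order of the binding proteins was Igfbp6 at 156 ± 20.3, Igfbp5 at 83.0 ± 25.4, Igfbp4 at 56.2 ± 18.9 and Igfbp2 at 53.2 ± 18.4 RPKM (SD, n = 3). Igfbp3, at 7.42 ± 0.99 RPKM, went from rank 5 of the 10 genes in WT to rank 7, below Igf2r at 12.2 ± 0.968 and Igf1r at 10.4 ± 2.76 RPKM. Igf1, Igf2 and Pappa kept the last 3 places at 5.82 ± 0.804, 2.52 ± 0.596 and 0.477 ± 0.31 RPKM. With the length of the longest transcript in place of all exons the WT order was the same for all 10 genes, while in Bnc1tr/tr ovaries Igfbp2 and Igfbp4 exchanged places, as did Igf1r and Igf2r.

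**Figure D1:**
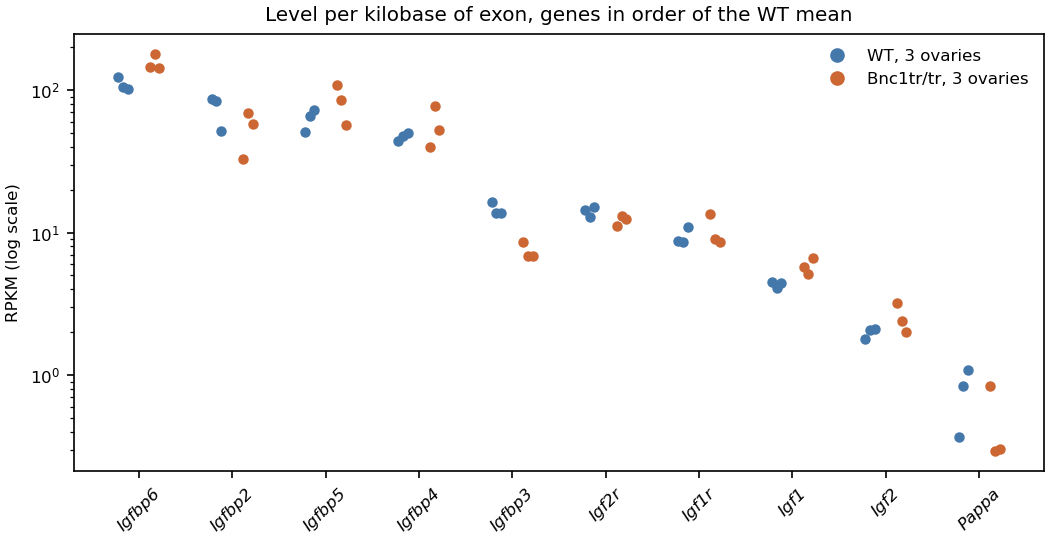
Level of each gene in RPKM (log scale) in the 3 WT ovary samples (blue) and the 3 Bnc1tr/tr samples (orange), with genes in order of the WT mean. Igfbp6 was highest in every sample and Igfbp3 lay at 6.84 to 8.57 RPKM in Bnc1tr/tr against 13.6 to 16.5 RPKM in WT samples.

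The ligand Igf1 lay higher in every Bnc1tr/tr sample than in every WT sample but did not pass the test. Its CPM after TMM scaling was 44.7, 40.7 and 44.2 in WT replicates 1, 4 and 7 and 56.4, 50.4 and 66.2 in Bnc1tr/tr replicates 1, 2 and 3. The highest WT and the lowest Bnc1tr/tr sample were 44.7 and 50.4 CPM, so the groups were close without overlapping. The log2 fold change was 0.42 (SE 0.11, 95% interval 0.16 to 0.68), with an adjusted p of 0.0673 by edgeR's quasi-likelihood test. Igf1 passed in 3 of 14 alternatives. Adjusted p was 0.035 by edgeR without TMM scaling, 0.0209 by DESeq2, and 0.0421 by edgeR without Bnc1tr/tr replicate 2. In other edgeR fits it was 0.235 without WT replicate 4 and 0.172 without Bnc1tr/tr replicate 3, the sample with the most Igf1. Without the 2 samples with the most oviduct marker reads, which include Bnc1tr/tr replicate 3, the log2 fold change was 0.32 (edgeR adjusted p 0.301).

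Igf2, the ligand expressed from the paternal allele, overlapped between the genotypes. It had 275, 390 and 352 counts in WT and 511, 355 and 326 counts in Bnc1tr/tr samples. Bnc1tr/tr replicate 1 was the highest also after scaling, at 18.2 CPM against means of 11.4 ± 1.02 in WT and 14.4 ± 3.41 CPM in Bnc1tr/tr ovaries (SD, n = 3). Its log2 fold change was 0.34, with a 95% interval of -0.07 to 0.76 (edgeR, adjusted p = 0.29), and was 0.14 without Bnc1tr/tr replicate 1. Per kilobase, Igf1 exceeded Igf2 in every sample, by a ratio of 2.21 ± 0.282 in WT and 2.42 ± 0.809 in Bnc1tr/tr ovaries (SD, n = 3). Igf2os and Mir483 overlap Igf2, and the strand setting of the counting is not given, so reads from Igf2 and from its antisense gene Igf2os, which had 6 to 19 counts, cannot be told apart.

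Neither receptor passed the test. Igf1r, the signalling receptor, had 146, 143 and 183 CPM in WT and 227, 151 and 143 CPM in Bnc1tr/tr samples. Only Bnc1tr/tr replicate 1 exceeded the WT samples, and the log2 fold change of 0.14 (95% interval -0.29 to 0.58, edgeR adjusted p = 0.683) became -0.10 without it. Igf2r, the clearance receptor for IGF2, had 135, 120 and 139 CPM in WT and 104, 121 and 117 CPM in Bnc1tr/tr samples. The ranges of Igf2r overlapped by WT replicate 4 and Bnc1tr/tr replicate 2, and its log2 fold change was -0.21 (95% interval -0.43 to 0.02, edgeR adjusted p = 0.235). The intervals leave room for changes in either direction. The noncoding RNA Airn, which is transcribed antisense through Igf2r and silences the paternal copy in many tissues, had 83 to 99 counts per sample and a log2 fold change of -0.05 (edgeR, adjusted p = 0.899).

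Igfbp3 fell in Bnc1tr/tr ovaries. It had 1390, 1429 and 1230 counts in WT and 754, 556 and 610 counts in Bnc1tr/tr samples, which gave 51.7, 43.2 and 42.4 CPM against 26.8, 21.4 and 21.5 CPM. The lowest WT sample stood well above the highest Bnc1tr/tr sample. The mean was 45.8 ± 5.14 CPM in WT and 23.2 ± 3.10 CPM in Bnc1tr/tr ovaries (SD, n = 3). The log2 fold change was -0.98 (SE 0.13, 95% interval -1.27 to -0.68), with an adjusted p of 0.0059 by edgeR's quasi-likelihood test. Igfbp3 stood at rank 227 of all genes by p. It stayed below the threshold without any 1 sample, with adjusted p between 0.00549 and 0.0381. Without the 2 samples with the most oviduct marker reads, which leaves 2 per genotype, the log2 fold change was -0.84 and adjusted p was 0.0636.

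Markers of luteal cells and of endothelium were lower in the same samples as Igfbp3. The 10 corpus luteum markers summed to 23400 to 28100 CPM in WT and 7360 to 12700 CPM in Bnc1tr/tr ovaries, and 8 of the 10 fell by the same test. Cyp11a1 and Hsd3b1 made up most of this sum, with means of 10160 and 8430 CPM in WT and 3547 and 5114 CPM in Bnc1tr/tr ovaries. Akr1c18 and Parm1 overlapped between the genotypes and did not pass (edgeR, adjusted p 0.647 and 0.58). The 6 endothelial markers summed to 521 to 697 CPM in WT and 347 to 391 CPM in Bnc1tr/tr ovaries, and 4 of the 6 fell. The 6 theca markers summed to 724 to 1090 CPM against 282 to 637 CPM, but 1 gene, Lhcgr, which the luteal list also holds, carried that fall, at 691 ± 132 CPM against 85.9 ± 6.90 CPM (SD, n = 3). Of the 6 theca markers, 4 had estimates above 0, and Ptch1 and Gli1, targets of hedgehog signalling, were higher in every Bnc1tr/tr sample, with log2 fold changes of 0.53 and 0.44 that did not pass (edgeR, adjusted p 0.121 and 0.0735). No marker of these 3 lists was at 0 in any sample. The part of these cell types in the Igfbp3 result was not tested, and in whole ovaries fewer cells of a type and less RNA per cell cannot be told apart.

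**Figure D2:**
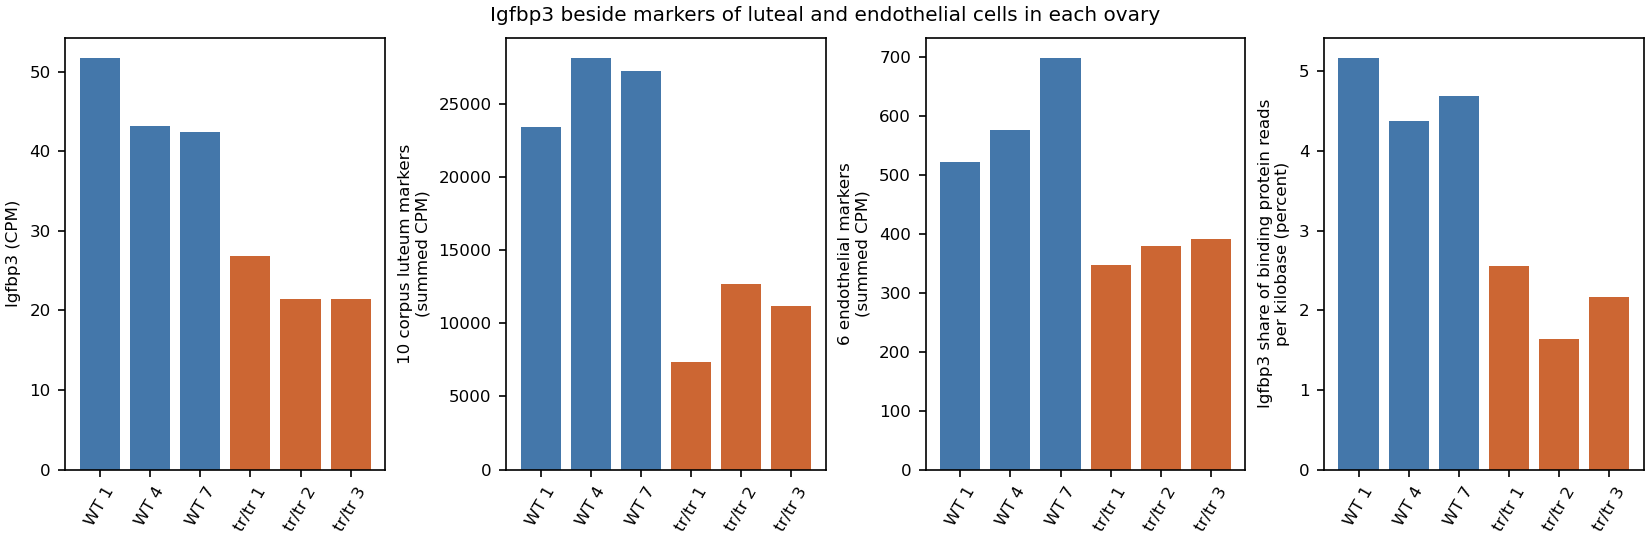
Bars give, for each WT (blue) and Bnc1tr/tr (orange) sample, Igfbp3 in CPM, the summed CPM of 10 corpus luteum markers, the summed CPM of 6 endothelial markers, and the percent of binding protein reads per kilobase that Igfbp3 held. In all 4 panels every Bnc1tr/tr sample lay below every WT sample.

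Igfbp6 rose. It had 3681, 3848 and 3281 counts in WT and 4574, 5195 and 4519 counts in Bnc1tr/tr samples, or 137, 116 and 113 CPM against 163, 200 and 159 CPM. The genotypes did not overlap, and Bnc1tr/tr replicate 2 was the highest sample. The mean was 122 ± 12.9 CPM in WT and 174 ± 22.6 CPM in Bnc1tr/tr ovaries (SD, n = 3), and the log2 fold change was 0.51 (SE 0.12, 95% interval 0.23 to 0.79). The adjusted p of 0.046 by edgeR's quasi-likelihood test lay just under the threshold, at rank 1276 by p. The call was lost when any of the 6 samples was left out, with adjusted p between 0.0581 and 0.19 and log2 fold changes of 0.40 to 0.59, and without the 2 samples with the most oviduct marker reads adjusted p was 0.104 at a larger log2 fold change of 0.65. Markers of other cell types that rose by the same test were Amh of granulosa cells, Gdf9, Bmp15 and Oosp1 of the oocyte and Plin1 of adipose tissue, 1 of 11, 3 of 10 and 1 of 6 markers of their lists. The summed levels of these lists overlapped between the genotypes, at 3820 to 5000 CPM in WT and 4230 to 6540 CPM in Bnc1tr/tr for granulosa cells, 543 to 705 and 671 to 1030 CPM for the oocyte, and 16.5 to 91.5 and 35.4 to 337 CPM for adipose tissue. The stromal genes Dcn and Lum had means of 372 and 77.3 CPM in WT and 625 and 155 CPM in Bnc1tr/tr ovaries without passing (edgeR, adjusted p 0.113 and 0.07), and the stromal sums were 1550 to 1930 and 1730 to 2410 CPM. The other stromal markers, Col1a1, Col1a2, Pdgfra and Tcf21, had log2 fold changes of 0.04, 0.07, 0.005 and 0.03. Of the 6 stromal markers, 0 passed. No marker of the granulosa, oocyte, stroma or adipose list was at 0 in any sample. The part of these cell types in the Igfbp6 result was not tested.

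Igfbp2, Igfbp4 and Igfbp5 overlapped between the genotypes and did not pass the test. Igfbp2, made by stromal and other ovarian cells, had 159, 156 and 94.8 CPM in WT and 60.6, 127 and 107 CPM in Bnc1tr/tr samples. Its log2 fold change was -0.47 with a 95% interval of -1.14 to 0.20 (edgeR, adjusted p = 0.361). Bnc1tr/tr replicate 1 was lowest and WT replicate 7 next lowest, and the estimate was -0.22 without Bnc1tr/tr replicate 1.

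Igfbp4, a PAPPA substrate, had 195, 208 and 219 CPM in WT and 175, 339 and 231 CPM in Bnc1tr/tr samples. Bnc1tr/tr replicate 2 stood apart, and the log2 fold change of 0.26 (95% interval -0.24 to 0.76, edgeR adjusted p = 0.511) became -0.04 without it. Igfbp5, the other substrate, had 303, 394 and 436 CPM in WT and 646, 508 and 342 CPM in Bnc1tr/tr samples. Its log2 fold change was 0.40 with a 95% interval of -0.14 to 0.94 (edgeR, adjusted p = 0.337), and was 0.17 without Bnc1tr/tr replicate 1, 0.25 without WT replicate 1 and 0.61 without Bnc1tr/tr replicate 3. Igfbp2 and Igfbp5 lie tail to tail on chromosome 1 with 5457 bases between them, and the sample with the lowest Igfbp2 in each genotype, WT replicate 7 and Bnc1tr/tr replicate 1, had the highest Igfbp5 of that genotype.

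Pappa, which had 84 to 345 counts per sample, had the largest SD relative to its mean of the 10 genes in both genotypes. It had 4.05, 9.24 and 11.9 CPM in WT and 9.21, 3.23 and 3.35 CPM in Bnc1tr/tr samples. WT replicate 1 lay with Bnc1tr/tr replicates 2 and 3, and Bnc1tr/tr replicate 1 lay with the other WT samples. Pappa gave a log2 fold change of -0.67 with a 95% interval of -1.84 to 0.49 (edgeR, adjusted p = 0.46), and moved from -0.35 without WT replicate 7 to -1.35 without Bnc1tr/tr replicate 1, so a difference was not detectable at this depth and spread.

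**Figure D3:**
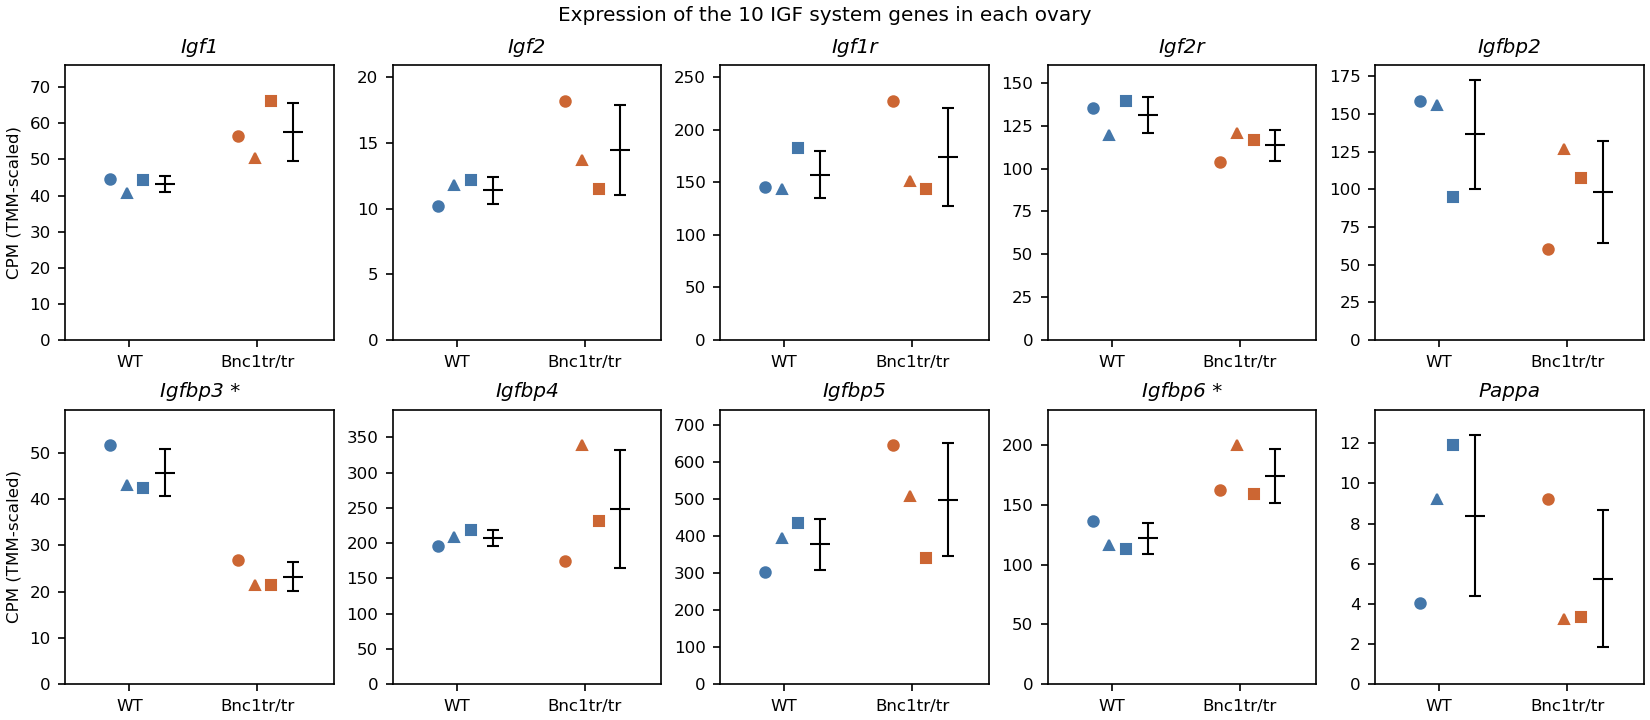
CPM after TMM scaling in each sample for the 10 genes, with WT in blue (circle, triangle and square for replicates 1, 4 and 7), Bnc1tr/tr in orange (replicates 1, 2 and 3), mean and SD in black, and an asterisk for an adjusted p under 0.05. The genotypes were separate for Igf1, Igfbp3 and Igfbp6 and overlapped for the other 7 genes.

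Over the 10 genes, 3 did not overlap between the genotypes in CPM, beside 30.8% of all genes tested. The same 3 had an unadjusted p under 0.05, as did 4698 of the 19423 genes. The estimates were above 0 for 6 of the 10 genes and below 0 for 4.

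**Figure D4:**
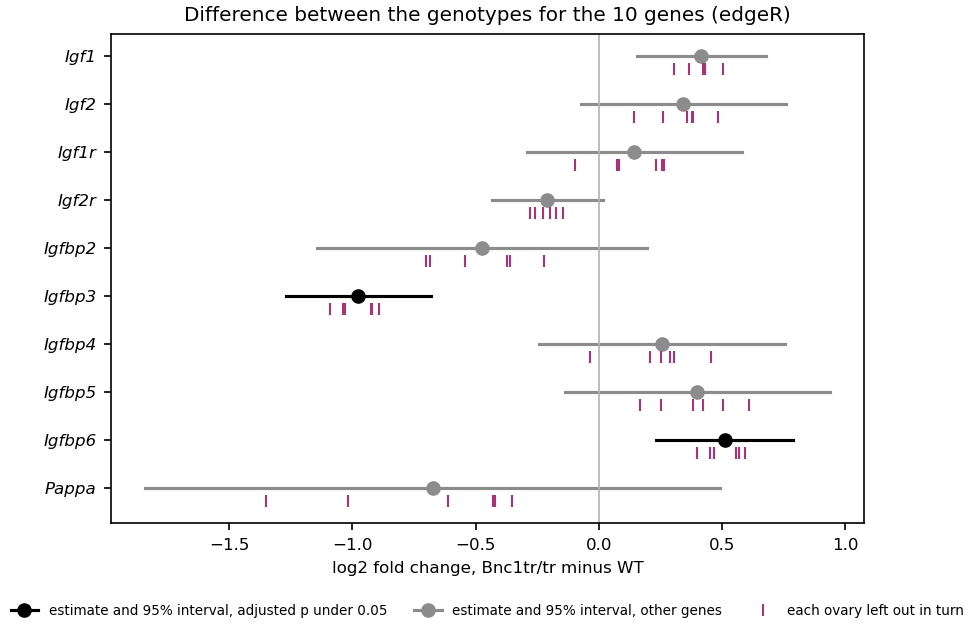
Log2 fold change (Bnc1tr/tr minus WT) of each gene with its 95% interval from edgeR, in black for the 2 genes with adjusted p under 0.05, and the estimates without each sample in turn as magenta ticks. The intervals of Igf1, Igfbp3 and Igfbp6 lie to 1 side of 0, and the ticks of Igf1r and Igfbp4 cross 0.

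Ratios within a sample do not depend on the scaling between libraries. Igfbp3 held 5.16%, 4.37% and 4.69% of the reads per kilobase of the 5 binding proteins in WT and 2.56%, 1.64% and 2.16% in Bnc1tr/tr samples, with no overlap. Igfbp6 held 38.4%, 33.1% and 35.2% in WT and 43.7%, 43.2% and 45.1% in Bnc1tr/tr samples, also with no overlap. The shares of Igfbp2, Igfbp4 and Igfbp5 overlapped. The 5 shares make up the whole in each sample, so a change in any of these genes moves the shares of the others. They come from the same counts as the calls above and are not separate evidence. The 5 binding proteins together exceeded Igf1 plus Igf2, per kilobase, by a ratio of 50.8, 51.1 and 43.9 in WT and 37.7, 55.7 and 36.5 in Bnc1tr/tr samples. The mean ratio was 48.6 ± 4.09 in WT and 43.3 ± 10.8 in Bnc1tr/tr ovaries (SD, n = 3), and the WT values lay within the range of the Bnc1tr/tr values.

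A wider list of 67 genes of the pathway, sorted by role, was read from the same fit. Of these, 59 were tested, 3 rose and 4 fell, which is 11.9% beside 7.06% of all genes, and the list median of the log2 fold change was 0.01. Those that rose were the protease inhibitor Stc1, the imprinted gene Plagl1 and Slc22a3 of the Igf2r cluster, and those that fell were Stat5a, Stat5b, Mtor and Mapk3. No tested gene of the other binding proteins (3 genes), the insulin receptor family (2 genes) or the receptor adaptors (11 genes) passed. The groups by role are small, and none was tested as a set. In CPM, 20 of the 59 tested genes did not overlap between the genotypes, near the share of all genes (5985 of 19423, or 30.8%).

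Stc1 encodes stanniocalcin 1, a secreted glycoprotein that inhibits the proteolytic activity of PAPPA. It had the largest rise of the 7 genes that passed, with 90.2, 57.6 and 84.6 CPM in WT and 355, 193 and 195 CPM in Bnc1tr/tr samples. All Bnc1tr/tr samples lay far above the WT samples, and replicate 1 was the highest. The log2 fold change was 1.68 (SE 0.27) with an adjusted p of 0.0137 by edgeR, which was 0.0748 without WT replicate 4, 0.0547 without WT replicate 7 and 0.0512 without the 2 samples with the most oviduct marker reads. The log2 fold changes in those fits were 1.49, 1.74 and 1.93. The related inhibitor Stc2 had a log2 fold change of 0.12 (edgeR, adjusted p = 0.597). Pappa2, whose product cleaves IGFBP3 and IGFBP5, had 1.49, 0.393 and 0.621 CPM in WT and 0.960, 3.43 and 1.73 CPM in Bnc1tr/tr samples, which overlapped (edgeR, adjusted p = 0.233).

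Of the 9 tested genes listed as binding IGF messages or as imprinted or neighbouring genes, 2 rose and 0 fell. The counts do not separate the alleles, so imprinting was not measured. Of all genes tested, 2.88% rose and 4.19% fell. Plagl1, an imprinted zinc finger transcription factor, had 33.7, 35.1 and 43.8 CPM in WT and 76.5, 62.9 and 69.3 CPM in Bnc1tr/tr samples. The genotypes were well apart, with a log2 fold change of 0.89 (SE 0.13, edgeR adjusted p = 0.00765, or 0.0586 without WT replicate 4). Slc22a3, an organic cation transporter gene of the Igf2r cluster, was rare, with 16, 12 and 12 counts in WT and 39, 30 and 34 counts in Bnc1tr/tr samples. Its log2 fold change was 1.45 (SE 0.30, edgeR adjusted p = 0.0309), and the adjusted p was between 0.055 and 0.147 without any 1 sample except WT replicate 1. Igf2r, in the same cluster, did not pass.

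Igfbp1 and H19, neighbours of Igfbp3 and Igf2, did not pass the test. Igfbp1, whose gene ends 3539 bases from Igfbp3, had 4, 3 and 6 counts in WT and 11, 17 and 12 counts in Bnc1tr/tr samples (edgeR, adjusted p = 0.0604). These few counts lay in the direction opposite to Igfbp3. H19, the maternally expressed noncoding RNA 72622 bases from Igf2, had 42.9, 42.7 and 44.2 CPM in WT and 42.6, 62.3 and 58.5 CPM in Bnc1tr/tr samples, with a log2 fold change of 0.33 (edgeR, adjusted p = 0.195).

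In the growth hormone axis, 2 of 4 genes fell, beside 4.19% of all genes tested. Both encode the STAT5 proteins that carry growth hormone and prolactin signals to the nucleus. Stat5b had 178, 205 and 266 CPM in WT and 116, 122 and 118 CPM in Bnc1tr/tr samples, and Stat5a had 79.4, 89.3 and 110 CPM against 56.9, 59.1 and 65.9 CPM. Neither overlapped between the genotypes, which also held for 30.8% of all genes tested. Log2 fold changes were -0.87 (SE 0.14) for Stat5b and -0.62 (SE 0.13) for Stat5a, with adjusted p of 0.0147 and 0.0338 by edgeR. Without WT replicate 4 the adjusted p was 0.0684 for Stat5b and 0.12 for Stat5a, without Bnc1tr/tr replicate 3 it was 0.0526 for Stat5b, and for Stat5a it was between 0.0654 and 0.12 without any 1 sample except WT replicate 1. The growth hormone receptor gene Ghr ranged from 32.7 to 47.9 CPM in WT and from 29.6 to 49.6 CPM in Bnc1tr/tr samples (edgeR, adjusted p = 0.997).

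Downstream of the receptors, 1 of 17 genes of the PI3K and AKT arm and 1 of 7 of the MAPK arm fell, and 0 rose. The first is 5.88%, near the 4.19% of all genes that fell, and the second is 14.3%, from 1 gene. Mtor, the kinase of the complexes that control growth, had 136, 130 and 142 CPM in WT and 113, 103 and 91.7 CPM in Bnc1tr/tr samples, with a log2 fold change of -0.41 (SE 0.10, edgeR adjusted p = 0.0459). Mapk3, the gene of the kinase ERK1, had 365, 414 and 408 CPM in WT and 237, 298 and 287 CPM in Bnc1tr/tr samples, with a log2 fold change of -0.53 (SE 0.11, edgeR adjusted p = 0.0329). Both were separate between the genotypes, as were 30.8% of all genes tested. Both calls were lost without TMM scaling (edgeR adjusted p 0.0891 for Mtor and 0.0536 for Mapk3). The Mtor call was also lost without any 1 sample except Bnc1tr/tr replicate 1 (adjusted p 0.0875 to 0.135), and the Mapk3 call without WT replicate 1, 4 or 7 or Bnc1tr/tr replicate 3 (0.0558 to 0.145). Stat5a was lost without TMM scaling as well, at an adjusted p of 0.0553. The luteal and endothelial markers given beside Igfbp3 were lower in the same samples as Stat5a, Stat5b, Mtor and Mapk3, and their part was not tested. Without the 2 samples with the most oviduct marker reads Stat5b was the only gene of the wider list that passed. Its adjusted p by edgeR was 0.0499, barely under the threshold, at a log2 fold change of -0.99. In that fit the log2 fold change was 0.81 for Plagl1 (edgeR adjusted p 0.0814), 1.69 for Slc22a3 (0.103), -0.79 for Stat5a (0.0638), -0.34 for Mtor (0.266) and -0.63 for Mapk3 (0.135).

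**Figure D5:**
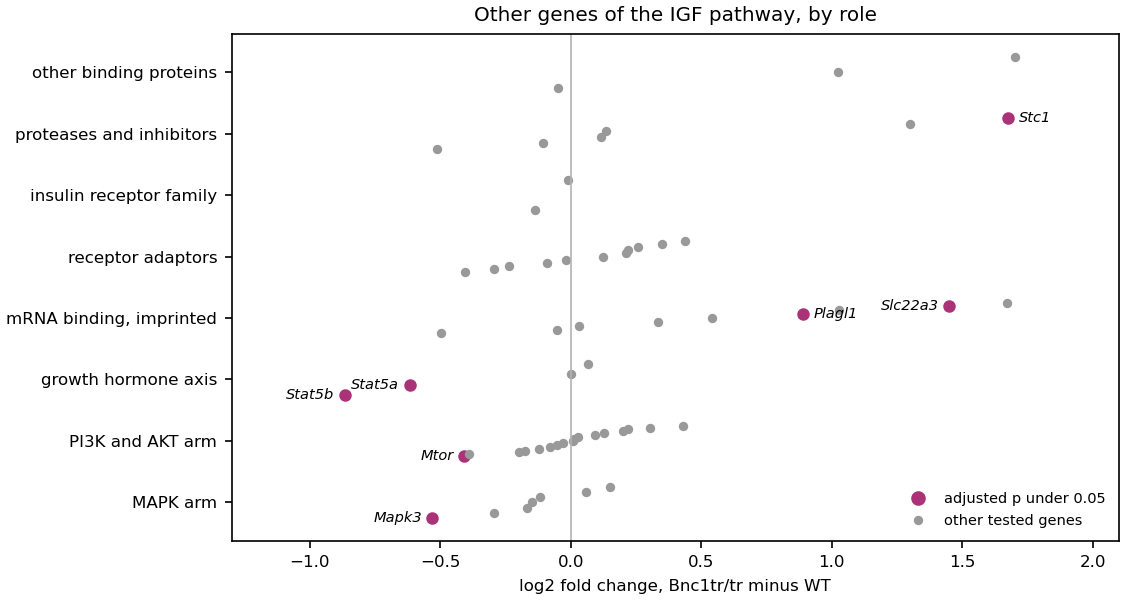
Log2 fold change (Bnc1tr/tr minus WT) of the 59 tested genes of the wider list, 1 point per gene, grouped by role, with the 7 genes of adjusted p under 0.05 named and in magenta. Stc1, Plagl1 and Slc22a3 lie above 0 and Stat5a, Stat5b, Mtor and Mapk3 below.

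The genes most like Igfbp3 and Igfbp6 over the 6 samples were found by the root mean square difference of centred log2 CPM among 16752 other genes with a mean of at least 1 CPM. Nearest to Igfbp3 were Prdx6, a peroxiredoxin that reduces phospholipid hydroperoxides, at 0.0902, the transcription factor gene Runx3 at 0.0955 and Btbd16 at 0.101. Their log2 fold changes were -0.95, -0.93 and -0.92 (edgeR adjusted p 0.0023, 0.0619 and 0.0198), so Runx3 did not pass. Nearest to Igfbp6 were Trmt112-ps2 at 0.0487, Gm4540 at 0.0542 and Ndrg2 at 0.0556, with log2 fold changes of 0.58, 0.44 and 0.45. The adjusted p by edgeR was 0.0282, 0.102 and 0.103, so Gm4540 and Ndrg2 did not pass. Trmt112-ps2 is named as a pseudogene, so its reads may come from its parent gene.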

How the data were processed

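Total RNA was extracted with TRIzol from mouse ovaries (3 WT and 3 Bnc1tr/tr samples), and single-end libraries were made with the Ion Total RNA-Seq kit for Ion Proton sequencing. Read counts per gene symbol, as whole numbers with no scaling, were deposited by the authors. The submitters' processing notes name the builds mm10 and Sscrofa10.2 without a role for either. Aligner, counting tool, annotation and strand setting are not given in the sources used here. Groups were taken from the sample labels, and all 6 samples entered the fit.

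Genes were filtered with filterByExpr (minimum count 10), scaled with TMM and fitted by glmQLFit in edgeR 4.0.16 under R 4.3.3. The two-sided glmQLFTest p-values of 19423 genes were adjusted by Benjamini-Hochberg, and 0.05 was the threshold. Samples of a genotype varied with a common biological coefficient of variation of 0.186. The paper's methods state no gene-by-gene test for these samples. CPM used TMM-scaled library sizes, and RPKM divided them by the union of GENCODE M21 exons. Promoters came from RefSeq, which held 9 of the 10 genes, 250 bases before each start. Motifs were searched on both strands. Only the gene-by-gene fits were tested on simulated data, with dispersions taken from these samples.

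The genes named are the 10 IGF genes, genes of the wider list past the threshold, the neighbours Igfbp1, H19 and Airn, the 3 genes most like each IGF gene that passed, and Bnc1. Stc2, Pappa2, Ghr, Irs1, Dlk1, Igf2os, Mir483 and single marker genes such as Lhcgr and Cyp17a1 were named for context after their values were seen. The 10 genes, the wider list and the marker lists were chosen with earlier results of these data known. Symbols of 2 genes were matched through RefSeq synonyms. Alternatives were DESeq2 size factors or library size alone, no filter, at least 10 counts in every sample, each sample left out, DESeq2 1.42.0, limma-voom (limma 3.58.1) and a robust fit. Leaving out the 2 samples with the most oviduct marker reads was added after seeing the data.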

Additional observations from a re-analysis of the deposited data

How the results depend on the processing

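With 3 samples per genotype the number of genes past the threshold moved with the tool and with single samples. Of all genes, 1372 passed in edgeR, 2420 in DESeq2, 320 (without WT replicate 4) to 1282 when 1 sample was left out, and 304 without the 2 samples with the most oviduct marker reads, an alternative chosen after seeing the data. WT replicates 1 and 7 and Bnc1tr/tr replicate 3 gave 781, 518 and 634 when left out. Of the 10 IGF genes, 2 passed, with 1 to 2 when a sample was left out and 0 in edgeR without the 2 oviduct-rich samples, where 4 had an unadjusted p under 0.05. Of the wider list, 7 genes passed, 12 in DESeq2, 0 (without WT replicate 4, where 14 had an unadjusted p under 0.05 in edgeR) to 7 when a sample was left out, 2 without WT replicate 7, 2 without Bnc1tr/tr replicate 3, and 1, Stat5b, without the 2 oviduct-rich samples. The log2 fold change of Igf1r was -0.0958 without Bnc1tr/tr replicate 1 and up to 0.267 without another sample, and that of Igfbp4 was -0.0357 without Bnc1tr/tr replicate 2 and up to 0.456. Igfbp3 kept its direction in 14 of 14 alternatives and its call in 13, at log2 fold changes of -1.09 to -0.84. Igfbp6 kept its direction in 14 and its call in 7. With library size alone in place of TMM the median log2 fold change of all genes moved from 0.02 to 0.12, no IGF gene changed sign, and Igf1 joined the calls. The log2 difference in the ratio of binding proteins to ligands was -0.19, and -0.385 to -0.0806 without 1 sample. The cause of these moves was not tested. No paired analysis was possible because the genotypes share only replicate number 1 in the labels, which do not give litters.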

Other observations

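Several IGF genes varied within a genotype in the same samples, a pattern picked out after the values were seen and not tested. Bnc1tr/tr replicate 1 had the highest Igf2, Igf1r and Igfbp5 of all 6 samples, at 18.2, 227 and 646 CPM, and the lowest Igfbp2 and Igfbp4, at 60.6 and 175 CPM. The insulin receptor substrate gene Irs1 was also highest there, at 119 CPM against 61.9 to 76.2 CPM elsewhere. The summed level of 6 adipose markers in that sample was 337 CPM, with 250 and 35.4 CPM in the other Bnc1tr/tr samples and 16.5 to 91.5 CPM in WT samples, and the theca enzyme gene Cyp17a1 had 235 CPM against 3.66 and 5.46 CPM in Bnc1tr/tr replicates 2 and 3 and 8.62 to 124 CPM in WT samples.

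Pappa and its paralogue Pappa2 ran in opposite orders between these groups of samples, also picked out after the values were seen. The 3 samples with the most Pappa, WT replicates 4 and 7 and Bnc1tr/tr replicate 1, at 9.24, 11.9 and 9.21 CPM, were the 3 with the least Pappa2, at 0.393, 0.621 and 0.960 CPM. The paternally expressed gene Dlk1 was highest in Bnc1tr/tr replicate 2, at 12.6 CPM, where Igfbp4 was also highest, and had 1.93 to 2.78 CPM in WT samples, without passing the test (edgeR's quasi-likelihood test, adjusted p = 0.0639).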
